A study of Mus musculus with 22 samples.

Results

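The comparison described here is that of conditional knockout (CKO) of Tlr4 with wildtype (WT) in ulnae that had been loaded mechanically. The members were chosen by the labels: 11 of the 22 libraries come from the loaded right limb, 7 from WT mice and 4 from CKO mice. Each library is total RNA of 1 mouse, from the middle stretch of the ulna, a long forearm bone. The remaining 11 libraries, from the non-loaded left limbs of the same mice, are used beside them. The title of the series sets the receptor in osteoblasts, the cells that lay down bone matrix, but the labels name no Cre driver, loading regime, harvest time, strain, age or sex. Loaded libraries held 21999891 to 37522196 counts, and 18793 of 25471 listed genes entered the tests. Levels are given as counts scaled to the library total after its adjustment by TMM factors (CPM). They are therefore not plain shares of the library total, and genes of different length are not comparable on this scale. Differences are given as log2 fold changes, CKO minus WT, with the standard error (SE).

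TLR4 is a receptor on the cell surface that, with MD-2 and CD14, binds bacterial lipopolysaccharide and, by many accounts, molecules set free from damaged tissue. Its adaptors MyD88 and TRIF carry the signal to NF-kB, which drives inflammatory genes, and to IRF3, which drives interferon genes. In bone, loading is sensed mainly by osteocytes, is followed within a short time by immediate-early genes such as Fos and Egr1, and leads to new matrix from osteoblasts, while osteoclasts remove bone.

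The targeted gene was read first. Tlr4 (ENSMUSG00000039005, chromosome 4, 66827584 to 66930284, GRCm38) stood at 28.9 to 42.2 CPM in the 7 WT libraries (median 32.2) and at 32.4, 30, 29.3 and 24.9 CPM in the 4 CKO libraries. The groups overlapped, and the log2 fold change was -0.20 ± 0.12 (edgeR quasi-likelihood test, adjusted p = 0.606). An exact two-sided permutation test of the log2 CPM values over all 330 choices of 4 mice gave a difference of -0.19 and p = 0.139. A count over the whole gene in a mixed tissue need not show the loss of an exon or of the gene in 1 cell type, so Tlr4 does not serve here as a check of the labels.

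Libraries of 2 mice stood apart from their labels, which touches every result below. Ltbp2 (ENSMUSG00000002020, chromosome 12, 84783212 to 84876532) encodes a microfibril protein related to the TGF-beta binding proteins. It was at 38.8 to 55.7 CPM in 6 WT loaded libraries and at 380 CPM in the library labelled WT loaded of mouse 686. In the CKO loaded libraries it was at 205, 284 and 244 CPM for mice 691, 693 and 698, and at 38.4 CPM in the library labelled CKO loaded of mouse 688. In the non-loaded limbs all 7 WT libraries lay between 26.5 and 73.5 CPM and all 4 CKO libraries between 226 and 344 CPM, with no overlap. The library labelled WT loaded of mouse 686 was therefore at the level of the CKO group, and that labelled CKO loaded of mouse 688 at the level of the WT group.

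**Figure D1:**
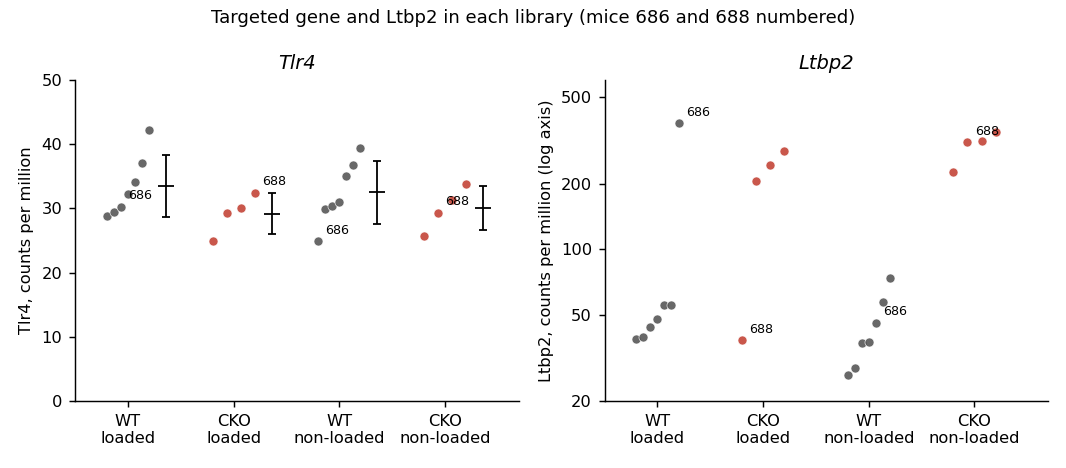
CPM of Tlr4 (left, linear axis) and Ltbp2 (right, log axis) in each of the 22 libraries, by labelled genotype and limb. Bars beside the Tlr4 points give the mean and SD. The Tlr4 groups overlap in both limbs, while for Ltbp2 the loaded libraries of mice 686 (380 CPM) and 688 (38.4 CPM) lie among or beyond those of the other genotype.

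The same was read over many genes. In the 9 other mice, the 100 genes whose level was most alike in both limbs were found, and each loaded library was correlated with each non-loaded library over them. The genes are not independent, and the r values are descriptions. The loaded library of each of those 9 mice correlated best with the non-loaded library of its own mouse, at 0.799 to 0.979, which the choice of genes favours. The library labelled WT loaded 686 had r = -0.10 with its own mouse and 0.721 with the non-loaded CKO library of mouse 688. The library labelled CKO loaded 688 had r = 0.0975 with its own mouse, 0.781 with the non-loaded WT library of mouse 687 and 0.75 with that of mouse 686. Without Ltbp2 among the genes the values for the library labelled 686 were -0.05 and 0.669. For the library labelled 688 they were 0.185 with its own mouse and 0.745 with mouse 686. All libraries stay in the group of their label here, and results are given also without the loaded libraries of these 2 mice (6 WT and 3 CKO).

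**Figure D2:**
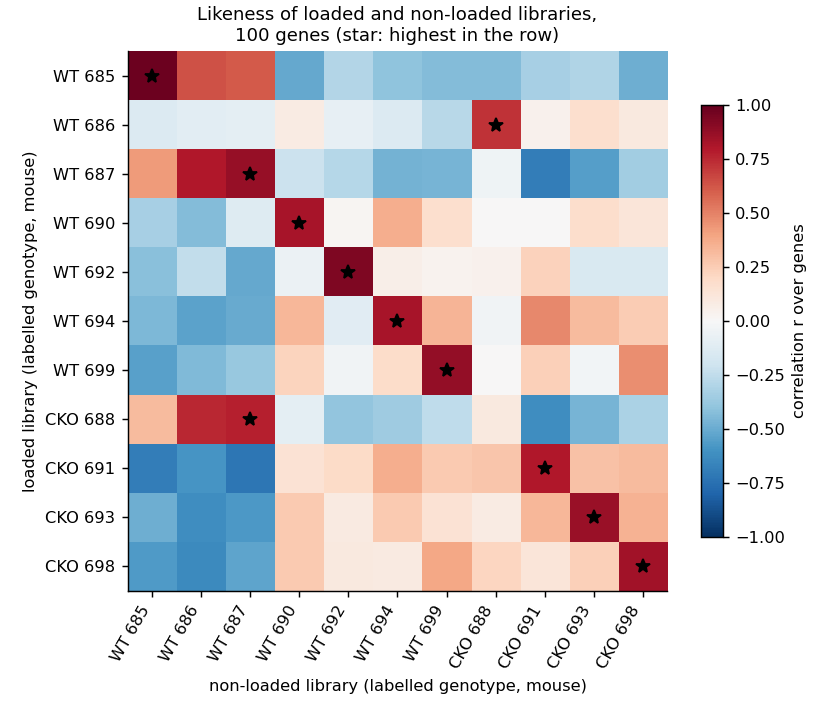
Correlation (r, colour scale) of each loaded library (rows) with each non-loaded library (columns) over the 100 genes most alike between the limbs of the other 9 mice. Stars mark the highest r of each row. They lie on the diagonal for 9 mice, while the libraries labelled WT loaded 686 and CKO loaded 688 have their highest r, 0.721 and 0.781, with another mouse.

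No gene was called between CKO and WT in loaded ulna. Of 18793 genes 0 (0%) passed an adjusted p of 0.05 in edgeR, and the lowest adjusted p was 0.601. At an unadjusted p under 0.05 there were 1280 genes, of which 751 (4% of the genes tested) were higher and 529 (2.81%) lower in CKO. In 136 genes (0.724%) all 4 CKO libraries lay above all 7 WT libraries, and in 96 (0.511%) all lay below. Log2 fold changes were small: the median over all genes was -0.04, the quartiles were -0.23 and 0.16, and 43.7% of genes were above 0. DESeq2 called 0 genes as well (1848 at an unadjusted p under 0.05), as did limma voom with quality weights (4188, lowest adjusted p 0.101). The number of genes at an unadjusted p under 0.05 depended on single libraries. It was 319 without CKO mouse 698, 764 without CKO 691, 805 without WT 694 and 2697 without the library labelled CKO 688.

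Without the loaded libraries of mice 686 and 688, 1 of 19011 genes (0.00526%) was called, and this was Ltbp2. Its log2 fold change was 2.40 (adjusted p = 0.000166), against 1.03 ± 0.56 (adjusted p = 0.601) with all libraries. Since these libraries were singled out by Ltbp2 itself, that call is a description and not a test. At an unadjusted p under 0.05 there were then 3111 genes. In the non-loaded limb the log2 fold change of Ltbp2 was 2.77 ± 0.57, with CKO above WT in every library (edgeR adjusted p = 0.516). The spread behind that p is pooled over all 22 libraries, the loaded libraries of mice 686 and 688 among them. Without those libraries edgeR called 1 gene in the non-loaded limb (lowest adjusted p 3.44e-06). The antisense gene D030025P21Rik, which overlaps the start of Ltbp2 on the opposite strand (chromosome 12, 84875769 to 84879755) and was picked out once its level was known, followed a like pattern at under 2 CPM. It was at 1.79 CPM in the library labelled WT loaded 686, at 0.121 to 0.459 CPM in the other WT loaded libraries, at 0.334 in that labelled CKO loaded 688, and at 0.679, 0.794 and 0.908 in the other CKO loaded libraries. Of the 52 genes tested within 1 Mb of Ltbp2, 27 were above and 25 below 0 (median 0.02), and within 5 Mb of Tlr4 12 of 29 were above 0 (median -0.09).

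In the non-loaded limb 0 genes were called by edgeR (lowest adjusted p 0.284), while 572 had an unadjusted p under 0.05. There were 2 calls with DESeq2 there (lowest adjusted p 0.00354), and 2 with limma voom and quality weights (lowest adjusted p 0.0393). The genotype difference in loaded minus that in non-loaded ulna, which is the test of whether the limbs differ, gave 0 calls (lowest adjusted p 0.697, with 488 at an unadjusted p under 0.05). No gene is therefore shown to differ between the limbs in its response to genotype, and the values of the 2 limbs below stand side by side only.

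Immediate-early genes, the first transcripts made after a stimulus, mostly had log2 fold changes above 0, and none was called. Of 21 tested 15 were above 0 and 6 below, with a median of 0.201 against -0.0417 over all genes. The median was 0.0713, with 14 of 21 above 0, once muscle and marrow scores of each library were covariates. Of the same genes 5 were above 0 in the non-loaded limb (median -0.135). Fosb, a partner of Jun in AP-1, was at 3.86, 6.77, 5.39, 11.3, 5.47, 4.09 and 5 CPM in WT mice 685, 686, 687, 690, 692, 694 and 699. In the CKO libraries of mice 688, 691, 693 and 698 it was at 15.2, 10.8, 8.61 and 13 CPM. The CKO libraries were the higher ones apart from WT mouse 690, which reached into their range. The log2 fold change was 0.99 ± 0.29 (unadjusted p = 0.00284, adjusted p = 0.601), 0.89 without mice 686 and 688, and -0.42 ± 0.33 in the non-loaded limb. The difference between the limbs was 1.41 ± 0.44 (adjusted p = 0.697).

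Egr1, a zinc finger factor induced by strain in bone cells, was at 31.1 to 68.2 CPM in WT (median 45) and at 53.5, 69.6, 69.6 and 87.3 CPM in CKO. Of the 4 CKO libraries 3 lay above every WT library. The log2 fold change was 0.55 ± 0.25 (unadjusted p = 0.0374, adjusted p = 0.601), and -0.36 ± 0.26 in the non-loaded limb. Fos (0.30 ± 0.30) and Nr4a1 (0.42 ± 0.33) overlapped widely between the groups. Fosb and Egr1 were the members of this list at an unadjusted p under 0.05, and none had groups that did not overlap.

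Differences in genes of the receptor pathway were small, and none was called. Of 26 genes of the TLR4 complex and its adaptors 21 were below 0 and 5 above (median -0.0889), against 43.7% above 0 over all genes. The sign of the list turned with muscle and marrow scores of each library as covariates, to 15 of 26 above 0 and a median of 0.0102. The non-loaded limb had 20 of the 26 above 0 (median 0.0829). Of the core parts, Cd14 had 0.15 ± 0.29, Ly96 (MD-2) -0.08 ± 0.30, Myd88 -0.12 ± 0.23 and Ticam1 (TRIF) -0.07 ± 0.12, each within its error of 0. The members at an unadjusted p under 0.05 were Cd180, a TLR4 homologue of B cells and myeloid cells, at -0.48 ± 0.22, and Ikbke, a kinase of IRF3, at -0.45 ± 0.21. Cd180 was at 10.2 to 16.5 CPM in WT (median 13.4) and at 12.8, 7.25, 9.84 and 7.7 CPM in CKO. The library labelled CKO 688 was the only CKO library inside the WT range.

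Of 14 NF-kB genes 12 were below 0 (median -0.145, and 0.0606 in the non-loaded limb). With the covariates 9 were below 0 and the median was -0.044. Nfkb2, the precursor of p52, was at 24, 25.2, 26, 27.2, 29.6, 29.9 and 30.1 CPM in WT and at 23.1, 23.2, 23.5 and 23.9 CPM in CKO. The groups did not overlap, though the highest CKO and the lowest WT library lay close together, and the log2 fold change was -0.23 ± 0.09 (adjusted p = 0.601). Nfkbie, an inhibitor of NF-kB, had -0.54 ± 0.18 and Ikbkb, the kinase that releases NF-kB, -0.35 ± 0.13, both with overlapping groups. Of 12 ligands set free from tissue 10 were below 0 (median -0.161). With the covariates 6 of these ligands were above and 6 below 0 (median -0.0451). In the non-loaded limb 6 were above 0 (median 0.0179). Fibronectin (Fn1) was the member at an unadjusted p under 0.05, with -0.56 ± 0.25.

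Of 20 inflammatory targets tested 16 were below 0 (median -0.246, and 0.191 with 19 above 0 in the non-loaded limb). With the covariates 10 were above and 10 below 0, and the median was -0.00138. Il6, Cxcl2 and Cxcl3 were below the filter on low counts. The member at an unadjusted p under 0.05 went the other way: Socs3, a feedback inhibitor of cytokine signalling, had 0.63 ± 0.27. It was at 23.6 to 40.6 CPM in WT and at 28.7, 66.5, 29.6 and 71.7 CPM in CKO, so that 2 CKO libraries carried the difference. Il1b was at 4.15 to 17.2 CPM in WT and at 9.05, 13.4, 8.37 and 4.76 CPM in CKO, with a log2 fold change of -0.18 ± 0.48.

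Interferon-stimulated genes were all below 0, 20 of 20, with log2 fold changes of -0.62 to -0.155 and a median of -0.315. By contrast 18 of the 20 were above 0 in the non-loaded limb (median 0.188). Mx2, an antiviral GTPase that the annotation lists as a polymorphic pseudogene, was at 1.17 to 2.08 CPM in WT (median 1.51) and at 1.29, 1.02, 0.672 and 1.1 CPM in CKO. Its log2 fold change was -0.62 ± 0.21 (adjusted p = 0.601) and it was 0.42 ± 0.20 in the non-loaded limb. Isg15 had -0.61 ± 0.51, and its highest value was 21.7 CPM in WT mouse 694, where the other WT libraries were at 3.32 to 8.49 CPM. The summed share of these genes was highest in that library, 0.0532% of counts, and without it the median of the list was -0.182. With muscle and marrow scores as covariates it was -0.111.

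Nlrc4, a sensor of the inflammasome that turns on caspase-1 in myeloid cells, was below WT in all 4 CKO libraries. It was at 6.36, 5.9, 5.05, 5.09, 7.2, 8.18 and 6.49 CPM in WT mice 685, 686, 687, 690, 692, 694 and 699. In CKO mice 688, 691, 693 and 698 it was at 4.29, 3.62, 3.6 and 3.85 CPM. The log2 fold change was -0.72 ± 0.21 (unadjusted p = 0.00209, adjusted p = 0.601). It was -0.77 without mice 686 and 688 and between -0.776 and -0.642 with each library left out. It was 0.29 ± 0.20 in the non-loaded limb, and the difference between the limbs was -1.01 ± 0.28 (adjusted p = 0.697).

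Osteoclast genes were below 0 in 16 of 16 cases, with a median of -0.47 (-0.52 without mice 686 and 688, -0.25 with the covariates, -0.0868 in the non-loaded limb). Of the 16, 4 had an unadjusted p under 0.05, where 2.81% of all genes were lower at that p. In 2 CKO was below WT in every library, as in 0.511% of all genes. Dcstamp, needed for the fusion of osteoclast precursors, was at 1.81, 1.95, 2.26, 2.35, 2.67, 2.53 and 1.92 CPM in the WT libraries, mouse 685 to 699. It was at 1.48, 1.67, 1.31 and 0.97 CPM in CKO, every one below the lowest WT library (-0.71 ± 0.29, adjusted p = 0.601). Tnfrsf11a, which encodes RANK, the receptor for the osteoclast-forming cytokine RANKL, was at 11.5 to 14.4 CPM in WT and at 8.77, 11.4, 10.2 and 8.7 CPM in CKO (-0.39 ± 0.17). Tcirg1, a subunit of the proton pump of osteoclasts, was at 55.8 to 81.1 CPM in WT and at 63.6, 46.5, 49 and 37.3 CPM in CKO (-0.47 ± 0.18), with only the library labelled CKO 688 inside the WT range.

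The enzymes of bone resorption followed the same order with more spread. Oscar, a costimulatory receptor, had -0.87 ± 0.36. Acp5 was at 104 to 208 CPM in WT and at 86.5, 92.6, 177 and 78.2 CPM in CKO (-0.56 ± 0.30), and Ctsk, cathepsin K, at 99.7 to 149 and at 72.6, 74.9, 131 and 66.5 CPM (-0.52 ± 0.29). For both, CKO mouse 693 lay inside the WT range and the other 3 CKO libraries below it. Fewer cells of a type and less RNA per cell cannot be told apart in such libraries. Macrophage and monocyte markers, which share a lineage with osteoclasts, were below 0 in 15 of 15 genes tested (median -0.357). Their median was -0.0971 with the covariates, and in the non-loaded limb 11 of the 15 were above 0 (median 0.169). The part of these markers in the osteoclast values was not tested. Tnfsf11, which encodes RANKL, had -0.18 ± 0.25.

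**Figure D3:**
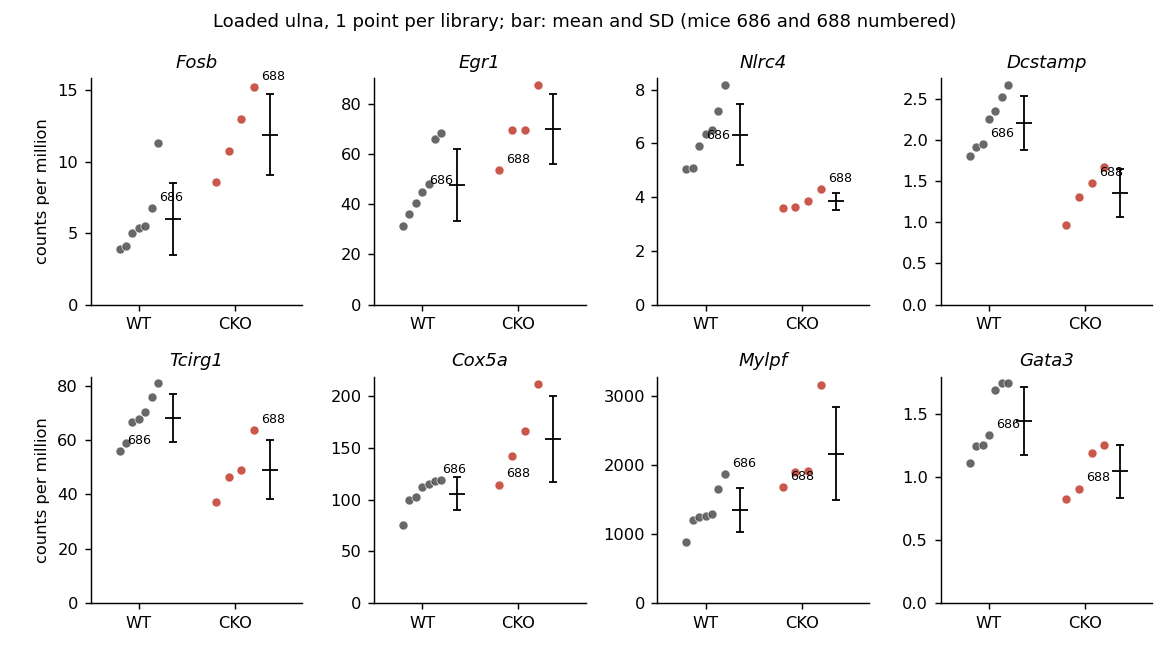
CPM (linear axes from 0) of 8 genes in the 7 WT and 4 CKO loaded libraries, 1 point per library, with the mean and SD beside them. Nlrc4 and Dcstamp have every CKO library below every WT library, Fosb and Egr1 are mostly higher in CKO, Tcirg1 and Gata3 mostly lower, and Cox5a and Mylpf higher with the highest value in CKO mouse 698.

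The bone-forming cells showed a direction that turned when single libraries were left out. Their defining genes were abundant, with Col1a1 at 1247 to 12064 CPM and Sost at 238 to 505 CPM over the 11 loaded libraries, as the label of the tissue says. Of 21 osteoblast matrix genes 17 were below 0 (median -0.188), and 19 with the covariates (median -0.202). The median was -0.289 without mice 686 and 688. In the non-loaded limb 1 of the 21 was above 0 (median -0.477). The loaded median kept its sign in 22 of 24 other settings, but was 0.0492 without WT mouse 685 and 0.028 without CKO mouse 691. Col1a1, the main collagen of bone, was highest in WT 685 and lowest in CKO 691 (-0.24 ± 0.59). Osteocalcin (Bglap, -0.15 ± 0.66) ran from 24.2 to 291 CPM in WT and from 30.6 to 210 CPM in CKO, with the highest value in WT 685 again. Phospho1, a phosphatase of matrix vesicles, was at 76 to 102 CPM in WT and at 97, 109, 109 and 162 CPM in CKO (0.39 ± 0.19). Its log2 fold change was 0.126 with the covariates and 0.01 ± 0.19 in the non-loaded limb. Runx2, the master factor of osteoblasts, was at 63.8 to 82.1 CPM and at 60.9, 50.4, 73.4 and 58.2 CPM (-0.28 ± 0.14).

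Of 15 osteocyte genes 9 were above 0 (median 0.0331), against 1 of 15 in the non-loaded limb (median -0.591). Dmp1, a matrix protein of osteocytes, had 0.15 ± 0.24 and Sost, the osteocyte inhibitor of Wnt signalling, 0.07 ± 0.25. Both turned below 0, to -0.145 and -0.166, without CKO mouse 693. Of 20 Wnt ligands and targets 11 were above 0 (median 0.0757, and -0.125 without CKO 693). Wnt1, a ligand that promotes bone formation, was at 4.01 to 9.85 CPM in WT and at 5.38, 5.89, 13.8 and 5.85 CPM in CKO. A single CKO library, that of mouse 693, lay above the WT range, and the log2 fold change of 0.32 ± 0.36 was -0.12 without it. Wnt7b had 0.10 ± 0.52. Of 12 secreted Wnt antagonists 9 were above 0 (median 0.104), with the largest value in Sfrp5 at 0.83 ± 0.64. The medians of both Wnt lists were below 0 with the covariates, -0.137 and -0.174.

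Genes of oxidative metabolism mostly had log2 fold changes above 0 in the loaded limb, and none was called. Of 24 genes of oxidative phosphorylation, the respiratory chain of mitochondria, 24 were above 0, with log2 fold changes of 0.406 to 0.584 and a median of 0.487, and 11 had an unadjusted p under 0.05, where 4% of all genes were higher at that p. The median was 0.0346 in the non-loaded limb. Cox5a, a subunit of cytochrome c oxidase, was at 75.1, 99.1, 103, 112, 115, 118 and 118 CPM in WT. In CKO it was at 114 CPM in the library labelled 688 and at 166, 142 and 212 CPM in mice 691, 693 and 698, above every WT library (0.58 ± 0.23, adjusted p = 0.601). Of 17 genes of fatty acid oxidation 16 were above 0 (median 0.39), the exception being Cpt1a, the liver form of carnitine palmitoyltransferase, at -0.32 ± 0.17. Etfb, an electron carrier of this pathway, had 0.39 ± 0.13. All 15 listed transcripts of the mitochondrial genome, kept as a mark of RNA quality, were above 0 (median 0.612). Their share was 3.36% ± 0.808 of counts in WT (SD, n = 7) and 4.74% ± 1.3 in CKO (n = 4). With muscle and marrow scores as covariates 12 of the 15 were above 0 (median 0.118), and in the non-loaded limb 13 were (median 0.286).

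Skeletal muscle markers moved with these genes. Of 22 muscle genes 21 were above 0 (median 0.598), the exception being Myh7, the slow myosin, at -0.50 ± 0.46. Their summed share was 10.7% ± 2.8 of counts in WT, from 5.92% in mouse 694 to 15.3% in the library labelled 686, and 13.6% ± 2.13 in CKO, from 11.8% in that labelled 688 to 16.7% in mouse 698. The groups overlapped in this share. Actn3, the actinin of fast fibres, was the only 1 of the 22 without overlap between groups, where 0.724% of all genes had CKO above in every library. It was at 513 to 1146 CPM in WT and at 1231, 1365, 1286 and 2101 CPM in CKO (0.74 ± 0.46, adjusted p = 0.602). The log2 fold change of Actn3 was -0.027 with the covariates. With muscle and marrow scores as covariates the median was -0.01 for muscle, as the scores are built from these genes, 0.17 for oxidative phosphorylation with 24 of 24 above 0, and 0.142 for fatty acid oxidation. Without CKO mouse 698 the medians were 0.4, 0.342 and 0.313 in that order. Of 12 Schwann cell genes, of the nerve sheath, 11 were above 0 (median 0.386), and -0.0407 was the median with the covariates.

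Most markers of blood and marrow cells had log2 fold changes below 0, and none was called. T and NK cell genes were below 0 in 18 of 18 cases (median -0.495), neutrophil genes in 16 of 16 (-0.404), megakaryocyte genes in 12 of 12 (-0.451), B cell genes in 15 of 16 (-0.372) and erythroid genes in 15 of 16 (-0.29). In the non-loaded limb the medians of these lists were above 0, at 0.216, 0.133, 0.325, 0.306 and 0.521. There WT mouse 699 and CKO mouse 691 had the lowest muscle shares of their groups, 4.77% and 2.97%, and high marrow scores, 6.873 and 6.899. The part of tissue mixture in the values of the non-loaded limb was not tested. Cd8a, the coreceptor of cytotoxic T cells, was at 1.45 to 4.42 CPM in WT and at 1.1, 1.5, 1.74 and 0.595 CPM in CKO (-0.97 ± 0.38). Gata3, a factor of T cells, was at 1.11 to 1.75 CPM and at 0.905, 1.19, 0.825 and 1.25 CPM (-0.47 ± 0.18). Both had an unadjusted p under 0.05, at 0.0194 and 0.0166, and overlapped between groups. The share of T and NK genes in loaded ulna was 0.00828% ± 0.00194 of counts in WT and 0.00572% ± 0.00148 in CKO. It was highest in WT mouse 694 (0.0124%) and lowest in CKO mouse 698 (0.00351%), the libraries with the lowest and highest muscle share.

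All 26 cell cycle genes were below 0 (median -0.298), with none at an unadjusted p under 0.05, and all 26 were above 0 in the non-loaded limb (median 0.43). Foxm1, a driver of mitotic genes, was at 20.6 to 42.4 CPM in WT and at 34.2, 21.6, 22.9 and 16.5 CPM in CKO (-0.40 ± 0.31). With the covariates the median of the list was 0.0333 and 16 of 26 genes were above 0. The erythroid median also turned, to 0.0674, and it was 0.0596 without WT mouse 694. With the covariates T and NK cell genes stayed below 0 in 18 of 18 cases (median -0.289) and megakaryocyte genes in 12 of 12 (-0.17). B cell genes were below 0 in 14 of 16 (-0.186) and neutrophil genes in 12 of 16 (-0.0885). Erythroid, neutrophil and B cell genes are themselves part of the marrow score. The part of tissue mixture in the inflammatory, interferon, osteoclast and oxidative values above was not tested further than by these covariates.

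**Figure D4:**
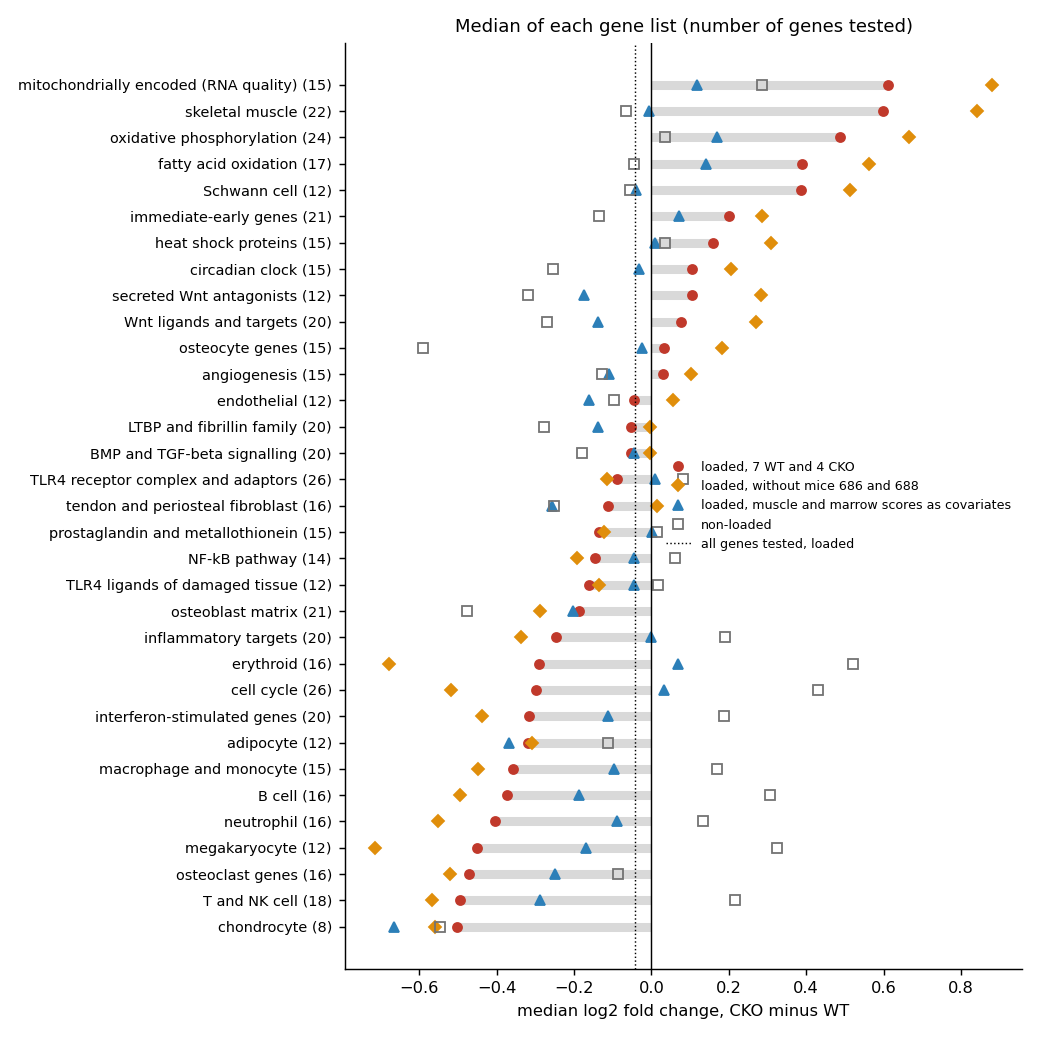
Median log2 fold change (CKO minus WT) of each gene list in loaded ulna with all libraries (circles and bars), without mice 686 and 688 (diamonds), with muscle and marrow scores as covariates (triangles) and in non-loaded ulna (squares). The dotted line is the median over all genes tested, -0.04. Osteoclast genes (-0.47) and oxidative phosphorylation (0.487) keep their side of 0 in all 3 loaded settings, while muscle (-0.01) and cell cycle (0.0333) do not with the covariates.

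The 24 genes of smallest p, 12 in each direction among those of at least 1 CPM, had an adjusted p of 0.601 throughout. Higher in CKO was first Rrad, a small GTPase of muscle, at 2.35 to 12 CPM in WT and at 6.86, 12.3, 4.77 and 56.4 CPM in CKO (1.83 ± 0.49). A single library, CKO mouse 698, set this apart, and the log2 fold change was 0.497 without it. Tiparp, a target of the aryl hydrocarbon receptor, had all CKO libraries above all WT libraries, at 26.5 to 42.9 CPM in WT and at 46, 56.6, 54.5 and 47 CPM in CKO (0.53 ± 0.16). It ranged from 0.481 to 0.592 with each library left out. Uchl3, a deubiquitinase, was without overlap too, at 5.82 to 7.87 CPM and at 8.19, 9.23, 8.89 and 11.2 CPM (0.48 ± 0.13).

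The other genes without overlap on the higher side were Myl10, a myosin light chain (1.30 ± 0.39), Vcp-rs (0.44 ± 0.13), Borcs7, part of the complex that positions lysosomes (0.42 ± 0.13), and Sdhaf2, an assembly factor of succinate dehydrogenase (0.29 ± 0.09). Vcp-rs is annotated as a processed pseudogene, a near copy of Vcp, so that its reads may belong in part to the parent gene. Slc25a16 (0.33 ± 0.10) and Clpp, a protease of the mitochondrial matrix (0.42 ± 0.13), overlapped between groups, as did U2af1l4 (0.39 ± 0.12) and Vps41, of the vesicle fusion machinery (0.27 ± 0.08).

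On the lower side, Lif, a cytokine of the interleukin-6 family, was at 1.37 to 2.17 CPM in WT and at 0.858, 0.764, 1.31 and 1.13 CPM in CKO, without overlap (-0.82 ± 0.24). Its value in the non-loaded limb was -0.66 ± 0.23. Banp had -0.41 ± 0.12 in the loaded and -0.31 ± 0.12 in the non-loaded limb. Hoxd4, a patterning factor, was at 0.805 to 1.6 CPM and at 0.762, 0.255, 0.55 and 0.657 CPM (-1.20 ± 0.35). Syne3, a nesprin that ties the nuclear envelope to the cytoskeleton, was at 56.1 to 64.3 CPM in WT and at 49.9, 52.7, 48.3 and 49.5 CPM in CKO (-0.25 ± 0.08). Also without overlap were Grk3 (-0.46 ± 0.14), Gmds (-0.36 ± 0.11), Slc4a2, an anion exchanger that osteoclasts need (-0.27 ± 0.08), and Unc119b (-0.24 ± 0.07).

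Mir142hg, the host transcript of a microRNA of blood cells, was at 1.7 to 3.05 CPM in WT and at 1.81, 1.78, 0.794 and 0.845 CPM in CKO (-0.93 ± 0.26), with overlap. Pde3b (-0.41 ± 0.13) and Fam102a (-0.42 ± 0.13) overlapped as well. Without the loaded libraries of mice 686 and 688 the 24 genes kept their direction, which their choice from mostly the same libraries favours. DESeq2 then called Banp (-0.545, adjusted p = 0.0185), a nuclear protein that binds matrix attachment regions.

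**Figure D5:**
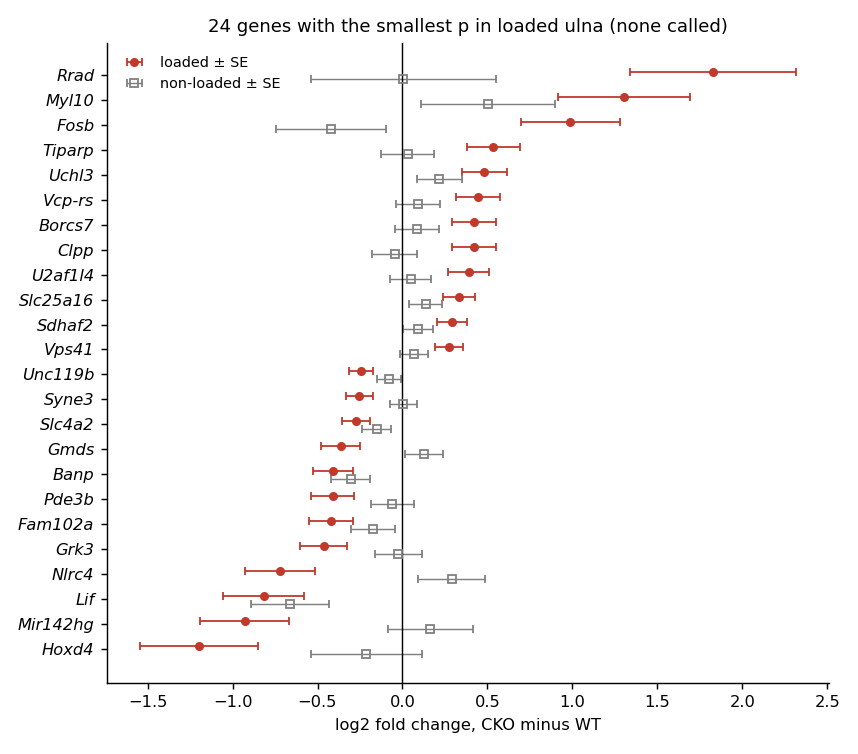
Log2 fold change (CKO minus WT) with its SE of the 24 genes of smallest p in loaded ulna (filled circles) and of the same genes in non-loaded ulna (open squares). The loaded values were used to choose the genes. They run from -1.20 (Hoxd4) to 1.83 (Rrad), and the non-loaded values lie nearer to 0 in each gene.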

How the data were processed

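Total RNA of mouse ulna was measured in 22 libraries, 11 of them from loaded limbs. Per the labels' protocols, libraries were made with a stranded total RNA kit from milled bone. STAR and RSEM with the build GRCm38 are named in the submitters' processing notes (versions and annotation: not given in the sources used here). Values are the deposited expected counts of each gene, all whole numbers, and 25428 of 25471 genes had a symbol. Coordinates are those of GENCODE M21.

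The fit was edgeR 4.0.16 in R 4.3.3 (filterByExpr, TMM, glmQLFit with robust=TRUE, glmQLFTest) with 1 mean per group of genotype and limb (4 in all), fitted to the 22 libraries, which leaves 18 residual degrees of freedom. Benjamini-Hochberg adjustment ran over 18793 genes, with calls under 0.05. The SE is the log2 fold change divided by the square root of F. Log2 CPM values for the permutation test used a prior count of 2. The fit was tested on simulated data. There each library was drawn independently, without pairing of limbs or tissue mixture, so the simulation does not bear on those features. Each limb of a mouse gave 1 library. The main fit had no term for the mouse, so its p-values rest on the spread between libraries within groups. That spread is pooled over both limbs, with the limbs of a mouse taken as independent.

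Members, gene lists, tests and named genes were chosen with earlier results of these data known. Lists are described by counts and medians, with no test. Named genes are the 12 of smallest p in each direction with at least 1 CPM, the genes called without the loaded libraries of mice 686 and 688, up to 3 members of each list by p, and 18 chosen genes. Other list members named in the text, and D030025P21Rik, were chosen after their values were seen. Some genes that the rule names are left out here. Alternatives were other scalings and filters, DESeq2 1.42.0, limma 3.58.1 voom, the loaded libraries alone, tissue covariates (mean log2 CPM of muscle, and of erythroid, neutrophil and B cell markers), and leaving out libraries. Same-numbered limbs come from the same mouse, so the numbers pair the limbs, but CKO and WT share no mouse. In alternatives only, the mouse entered as a random effect (correlation 0.155), and as a fixed block for the difference between the limbs.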

Additional observations from a re-analysis of the deposited data

Results flagged for a closer look

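Of 264 groups of values tested, 24 held a library whose gap to the nearest other was large for the range of its group. Chance alone flags about 1 in 20 groups, and no explanation was tested. Ltbp2 was at 380 CPM in the library labelled WT loaded 686 (next 55.7), and D030025P21Rik at 1.79 CPM in the same library (next 0.459).

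The library of CKO mouse 698 stood apart in 8 measures. It was highest in Rrad (56.4 CPM, next 12.3), Mylpf (3160 CPM, next 1910) and Actn3 (2101 CPM, next 1365). It was lowest in Cpt1a (39.8 CPM, next 59) and in the shares of counts of the tissue ligands (0.253%), the inflammatory targets (0.0402%), the neutrophil genes (0.293%) and the T and NK cell genes (0.00351%).

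WT mouse 694 was highest in Pde3b (29.7 CPM), Klf1, an erythroid factor (54.2 CPM), and Isg15 (21.7 CPM). It was also highest in the shares of interferon-stimulated genes (0.0532%), erythroid genes (0.443%) and T and NK cell genes (0.0124%).

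Single high values were those of Fosb (11.3 CPM), Wnt1 (9.85 CPM) and the share of Wnt ligands and targets (0.0236%) in WT mouse 690, Fos in WT mouse 692 (57.8 CPM) and Col1a1 in WT mouse 685 (12064 CPM). In CKO mouse 693 they were Wnt1 (13.8 CPM), Acp5 (177 CPM, next 92.6) and Ctsk (131 CPM, next 74.9).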

How the results depend on the processing

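The count of 0 called genes in loaded ulna was the same under other scalings, other filters on low counts, DESeq2, limma voom with quality weights, the loaded libraries alone, robust=FALSE, muscle and marrow covariates, and leaving out each loaded library (0 to 0 calls). With the mouse as a replicate block (random effect) it was 0 too, with 1280 genes at an unadjusted p under 0.05. For the difference between the limbs it was 0 with the mouse as a fixed or a random replicate block, and the block changed no call. Without the loaded libraries of mice 686 and 688 the count was 1 (Ltbp2), with covariates added it was 1 (Ltbp2, 2.37, adjusted p = 0.00134), and with DESeq2 it was 2 (Ltbp2, 2.41, adjusted p = 5.37e-16, and Banp). In non-loaded ulna edgeR called 1 gene without these libraries, and with all libraries DESeq2 called 2 and limma voom with quality weights 2. The settings that combine 2 choices, and the other tools for the non-loaded limb and for the difference between the limbs, were chosen after seeing the data.

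Signs of several log2 fold changes turned, and the cause was not tested. With the covariates, without and then with the libraries of mice 686 and 688 left out, Wnt7b was -0.652 and -0.558, Sfrp5 -0.363 and -0.324, Il1b 0.28 and 0.314, Ly96 0.106 and 0.193, Myd88 0.134 and 0.209, Ticam1 0.0341 and 0.00807, and Actn3 -0.027 and -0.163. With quality weights Il1b was 0.169, Ly96 0.137 and Myd88 0.0361. Postn, at -0.01 with all libraries, was 0.00657 with median-ratio scaling, 0.00646 with DESeq2, and 0.0995 and, with DESeq2, 0.109 without mice 686 and 688.

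With single libraries left out the sign also turned within these ranges. They were -0.12 (without CKO 693) to 0.467 for Wnt1, -0.0669 to 0.422 for Ptgs2, -0.145 to 0.267 for Dmp1 and -0.166 to 0.214 for Sost, each lowest without CKO 693. They were -0.163 (without CKO 698) to 0.325 for Wnt7b and -0.0982 (without CKO 691) to 0.308 for Cd14. For Il1b the range was -0.454 to 0.0299 and for Ly96 -0.225 to 0.159, each highest without CKO 698. It was -0.733 to 0.264 for Bglap and -0.566 to 0.163 for Col1a1, each highest without WT 685, and -0.352 to 0.187 for Postn, highest without CKO 691.

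Genes near 1 CPM, such as Mx2, Hoxd4 and Cd8a, rest on few counts, and small differences in them were not detectable at this depth. With 4 CKO mice, 1 of whose libraries goes against its label, the absence of calls does not show that the genotypes are alike.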

Other observations

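Cartilage genes were at low levels in the loaded bones. Of 14 listed 8 were tested, 6 of them below 0 (median -0.501, and -0.545 in the non-loaded limb), and the median was -0.04 without WT mouse 687. Col9a3, a chain of type IX collagen, was at 0.331 to 0.918 CPM in WT and at 0.334, 0.368, 0.275 and 0.125 CPM in CKO (-1.16 ± 0.39, unadjusted p = 0.00639, edgeR adjusted p = 0.601). Of 12 adipocyte genes 9 were below 0 and 3 above (median -0.318, and -0.111 in the non-loaded limb). Their summed share of counts went the other way, at 0.188% ± 0.0225 (SD) in WT and 0.229% ± 0.0237 in CKO. Of 16 genes of tendon and periosteal fibroblasts 10 were below 0 (median -0.112, and 0.0133 without mice 686 and 688), among them Comp (-0.60 ± 0.29) and Col14a1 (-0.55 ± 0.28). Endothelial genes had a median of -0.04.

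Among signalling genes, Ptger1, a receptor for prostaglandin E, was at 0.885 to 1.41 CPM in WT and at 0.667, 0.566, 0.916 and 0.876 CPM in CKO (-0.57 ± 0.19), and -0.48 ± 0.19 in the non-loaded limb. Mt1, a metallothionein that binds zinc, had 0.57 ± 0.27, Ptges2, a prostaglandin E synthase, 0.48 ± 0.17, and Vegfb, a ligand of the VEGF family, 0.54 ± 0.25. The lists around them had no common direction: 7 of 15 prostaglandin and metallothionein genes and 8 of 15 angiogenesis genes were above 0. Of 20 LTBP and fibrillin genes 8 were above 0 (median -0.05), with Ltbp2 the highest, and of 20 BMP and TGF-beta genes 7 (median -0.05). Of 15 heat shock genes 9 were above 0 (median 0.158, and -0.0584 without CKO mouse 698). Of 15 clock genes 14 were above 0 (median 0.106), and -0.0319 was their median with the covariates.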
